A study of Mus musculus with 4 samples.

Results

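The genes described here encode the enzymes, peptides and receptors of 3 systems that set vessel tone: the nitric oxide synthases *Nos1*, *Nos2* and *Nos3*, the endothelin peptides *Edn1* and *Edn3* with their processing enzyme *Ece1* and receptors *Ednra* and *Ednrb*, and the cyclooxygenases *Ptgs1* and *Ptgs2*. They were taken by gene symbol, 10 of the 33981 genes in the joined tables, without use of their values. Poly(A) transcripts were sequenced from a coronal slice of brain holding the prefrontal cortex, taken from male C57BL/6J mice aged 3 to 5 months. Normotensive (NT) mice were infused with saline and hypertensive (HT) mice received 0.28 mg/kg/day of angiotensin II, both for 28 days. On day 7, NT + Stroke and HT + Stroke mice received a photothrombotic stroke, in which light directed at the skull clots cortical vessels filled with a photosensitive dye, and NT + Sham and HT + Sham mice received sham surgery. All mice were culled on day 28, so the stroke values describe tissue 3 weeks after the lesion and not its acute phase. There were 6 numbered libraries in each of the 4 groups, each taken here as 1 mouse, but the labels hold 1 record per group. *P* values therefore measure the spread between these libraries.

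Nitric oxide diffuses from endothelium and neurons to vascular smooth muscle, where it raises cyclic GMP and relaxes the vessel. Endothelins are cut from inactive precursors by endothelin converting enzymes. They constrict vessels through the A receptor on smooth muscle, while the B receptor, which in brain is prominent on astrocytes and endothelium, can cause release of nitric oxide and clears the peptides. Cyclooxygenases turn arachidonic acid into the common precursor of prostaglandins, prostacyclin and thromboxane, and in forebrain the inducible form is made by excitatory neurons in response to synaptic activity.

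The 3 genes whose level differed between stroke and sham mice were *Ednrb*, *Ece1* and *Ptgs2*, and RefSeq gives the 250 bases before their annotated start sites on GRCm38.p6. They are shown so that the letters ahead of the genes that moved can be read beside their values. Capitals mark matches, on either strand, to CCAAT (the CCAAT box), GGGCGG (the GC box) or TGACG (a short form of the cyclic AMP response element), and the rest is in lower case, 5′ to 3′ on the gene's strand. The *Ednrb* window lies at chr14:103843702-103843951 on the minus strand, the *Ece1* window at chr4:137861987-137862236 on the plus strand, and the *Ptgs2* window at chr1:150099781-150100030 on the plus strand.
Ednrb: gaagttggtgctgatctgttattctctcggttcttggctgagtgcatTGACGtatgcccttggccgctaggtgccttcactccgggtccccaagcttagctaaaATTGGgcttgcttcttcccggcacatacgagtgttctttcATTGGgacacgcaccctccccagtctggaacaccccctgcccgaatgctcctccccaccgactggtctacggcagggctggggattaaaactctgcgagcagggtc
Ece1: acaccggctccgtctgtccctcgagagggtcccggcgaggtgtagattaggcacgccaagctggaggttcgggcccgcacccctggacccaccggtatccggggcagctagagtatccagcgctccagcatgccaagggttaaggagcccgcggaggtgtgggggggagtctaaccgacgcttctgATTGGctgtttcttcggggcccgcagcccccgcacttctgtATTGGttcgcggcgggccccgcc
Ptgs2: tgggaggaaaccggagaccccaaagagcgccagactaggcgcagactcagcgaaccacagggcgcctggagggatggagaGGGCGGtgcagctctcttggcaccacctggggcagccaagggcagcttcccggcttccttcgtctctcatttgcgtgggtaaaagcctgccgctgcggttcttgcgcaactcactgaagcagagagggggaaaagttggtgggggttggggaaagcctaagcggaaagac

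The *Ednrb* window held CCAAT 2 times on the opposite strand and TGACG 1 time, and its start site lies inside the gene as the files draw it, at an offset of −701 bases from their start. The *Ece1* window, 1 of 4 that RefSeq lists for the gene and the one whose start site is that of the files, held CCAAT 2 times on the opposite strand. The *Ptgs2* window held GGGCGG 1 time. Over all 32851 promoter windows of this length, 33.8% held CCAAT, 32.7% GGGCGG and 17.8% TGACG, so matches of this kind are common. TATAAA (12.4% of windows), TGANTCA (6.75%), CACGTG (6.02%), ACGTG (16.6%, which overlaps CACGTG) and the NF-kB site (0.356%) were also searched on both strands and occurred in none of these 3 windows. Among the *Ece1* windows not shown, one held CACGTG and ACGTG, and others held GGGCGG. The windows of *Edn1* and *Nos1*, which did not pass, held CCAAT and TGACG in turn. In all, 8 of the 10 genes had a window in the RefSeq table, and *Nos2* and *Nos3* had none.

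Total counts per library were 15922919 to 24865998, and all 10 genes passed the filter on low counts in every comparison. Neuronal and glial markers were abundant. The neuronal marker *Snap25* averaged 1898 to 2529 CPM (counts scaled to library size) by group and the astrocyte marker *Aqp4* 55.4 to 91.5 CPM. These markers show that the tissue was brain and cannot tell its regions apart. Libraries differed in how much of the neighboring regions they held. The summed level of 6 striatal markers ran from 168 to 1944 CPM over the 24 libraries and that of 5 olfactory bulb markers from 35.1 to 491.5 CPM, with none of these markers at 0 throughout a group. All 6 striatal markers were higher in stroke than in sham mice over both pressures, where 25.2% of all genes passed the test described below. In NT + Stroke vs NT + Sham 3 of the 5 olfactory bulb markers were higher, where 25.9% of all genes passed. Mouse 6 of HT + Sham stood apart from the other sham mice, with the lowest striatal and the highest olfactory bulb level of its group and a summed fibroblast marker level of 173.5 CPM, against 37.5 to 50.1 CPM in NT + Sham. Mice 1 and 6 of HT + Stroke had fibroblast marker scores (mean log2(CPM + 1)) of 3.79 and 3.88, inside the range of 3.20 to 5.09 in HT + Sham.

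On a scale per gene length (FPKM), *Ece1* was the most abundant of the 10 genes in NT + Sham, at 10.02 ± 0.52 (mean ± SD, n = 6), followed by *Ednrb* at 6.24 ± 0.79. *Nos1* (3.28 ± 0.47), *Ptgs1* (3.10 ± 0.44) and *Nos3* (2.82 ± 0.29) came next, and the libraries of neighbors in that order overlapped. *Edn3* (1.50 ± 0.29), *Ptgs2* (1.23 ± 0.24) and *Edn1* (1.02 ± 0.22) overlapped in the same way. *Ednra* lay below all of these at 0.60 ± 0.14 and *Nos2*, the inducible synthase of activated immune cells, was lowest at 0.13 ± 0.07. *Nos2* had 2 to 26 counts per library, so only a large change in it could have been detected. The processing enzyme and the B receptor thus stood first and second and *Nos2* last in each of the 4 groups, although in NT + Stroke and HT + Stroke the libraries of *Ece1* and *Ednrb* overlapped.

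**Figure D1:**
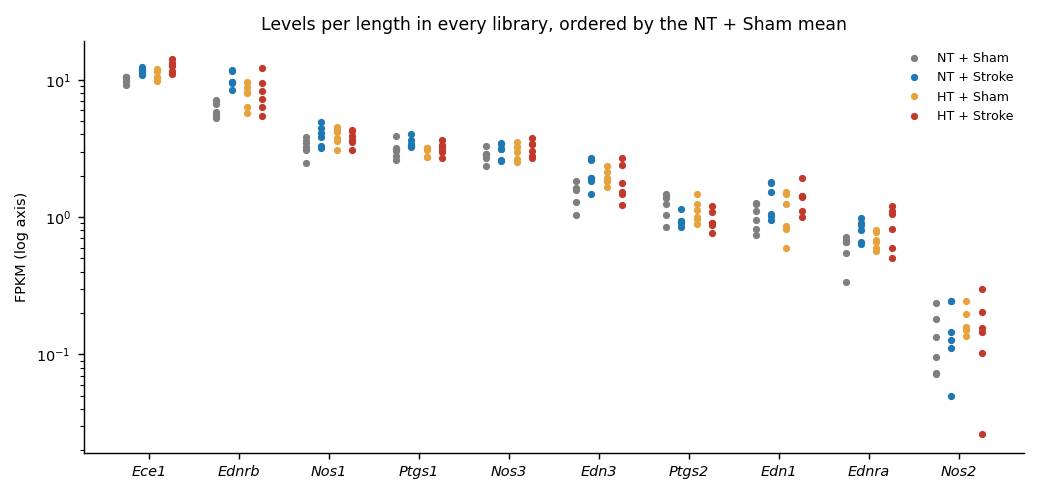
FPKM (log axis) of the 10 genes in each of 24 libraries, ordered by the NT + Sham mean, with 1 point per library and a color per group. Ece1 lies at 9.12 to 14.06 FPKM and Ednrb at 5.3 to 12.25 FPKM over the 24 libraries. A middle set lies near 3 FPKM, and Nos2 lies below 0.31 FPKM in every library.

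*Ednrb*, the endothelin B receptor, was the gene that differed most after stroke in normotensive mice. Its level was 22.9 to 30.9 CPM (median 26.7) in NT + Sham and 35.1 to 48.5 CPM (median 40.1) in NT + Stroke. Every NT + Stroke mouse lay above every NT + Sham mouse. The difference was a log2 fold change of 0.64 ± 0.09 (SE), or 56.0% higher, with an adjusted *P* of 4.03e-05 in edgeR's quasi-likelihood test. In the same comparison 25.9% of the 16835 genes tested passed an adjusted *P* under 0.05, and 13.5% had groups that did not overlap, against 3 and 2 of the 10 genes described here. The call held with each library left out in turn, with a log2 fold change of 0.59 to 0.70.

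In hypertensive mice *Ednrb* was 24.3 to 40.3 CPM (median 34.4) in HT + Sham and 22.9 to 48.1 CPM (median 31.9) in HT + Stroke. The ranges overlapped almost fully, and the highest sham level was that of mouse 6. The lowest stroke levels, 22.9 and 27.0 CPM, were those of mice 1 and 6 of HT + Stroke, which also had the lowest astrocyte scores of that group (6.83 each) and the low fibroblast scores given above. The log2 fold change was 0.04 ± 0.17 (95% interval −0.33 to 0.41, adjusted *P* = 0.934), with values of −0.09 to 0.12 when single libraries were left out. It was 0.11 ± 0.18 when mouse 6 of HT + Sham was left out, and leaving out either of those stroke mice gave 0.12 ± 0.16 (mouse 1) or 0.09 ± 0.18 (mouse 6). None of these passed. The difference between the stroke effects in HT and NT mice, tested as an interaction, was −0.61 ± 0.20 on the log2 scale (unadjusted *P* = 0.00662, adjusted *P* = 0.322). It therefore did not pass the test over all genes, and with the olfactory bulb and striatal scores as covariates it was −0.15 ± 0.20. Over both pressures, *Ednrb* was 0.33 ± 0.12 higher after stroke (log2 scale, adjusted *P* = 0.0400). That call was lost in 15 of 24 fits that each left out 1 library, namely any NT + Sham mouse, mice 1 to 5 of NT + Stroke, mice 1 and 2 of HT + Sham, and mice 3 and 5 of HT + Stroke, where the adjusted *P* was up to 0.0847. It was also lost with every gene of at least 1 count in the fit and with the region covariates.

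In NT mice astrocyte markers rose with *Ednrb* after stroke. All 5 were higher in NT + Stroke vs NT + Sham by the same test, where 25.9% of all genes passed. In HT + Stroke vs HT + Sham 0 of 5 passed, where only 0.645% of all genes did. Their summed level was 614 to 745 CPM in NT + Sham and 1241 to 1652 CPM in NT + Stroke. It was 669 to 1183 CPM (median 748) in HT + Sham and 722 to 2068 CPM (median 1492) in HT + Stroke, where the *Ednrb* log2 fold change was 0.04. *Gfap* made much of this sum, averaging 168.5 CPM in NT + Sham and 882.4 CPM in NT + Stroke, while *Aldh1l1* averaged 52.2 and 60.1 CPM. In HT + Sham and HT + Stroke *Gfap* averaged 258.4 and 825.9 CPM. The other markers moved less there, *Aqp4* averaging 61.5 and 73.1 CPM and *Gja1* 123.4 and 129.3 CPM. *Slc1a3* averaged 308.6 and 301.3 CPM and *Aldh1l1* 54.4 and 62.5 CPM in the same groups. Over the 24 libraries, with each group's mean subtracted, the level of *Ednrb* had a Pearson *r* of 0.75 with the astrocyte score, 0.71 with the endothelial score, 0.665 with the olfactory bulb score and −0.66 with the neuronal score. These libraries share brain, dissection and depth, and *r* is given as a description. The part of these markers in the difference was not tested, apart from the fit with region covariates, in which the stroke effect in NT mice was 0.39 ± 0.13 (adjusted *P* = 0.130). In bulk tissue, more cells of a type cannot be told apart from more RNA per cell. The 3 genes most like *Ednrb* over the 24 libraries, after group means were subtracted, were *Elovl5* (*r* = 0.94), *Myo10* (0.91) and *Arhgef26* (0.91).

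*Ece1*, which cuts the endothelin precursor to the active peptide, was modestly higher after stroke in NT mice and over both pressures, and did not pass in HT mice alone. It was 49.0 to 56.1 CPM (median 53.8) in NT + Sham and 56.1 to 64.1 CPM (median 59.6) in NT + Stroke, 51.1 to 62.6 CPM (median 57.7) in HT + Sham and 57.9 to 69.2 CPM (median 65.3) in HT + Stroke. The NT groups met without overlap, and all 6 HT + Stroke mice lay above the HT + Sham median. The log2 fold change was 0.17 ± 0.05 in NT mice (12.2% higher, adjusted *P* = 0.0275) and 0.18 ± 0.07 in HT mice (13.1% higher, adjusted *P* = 0.218), with an interaction of 0.01 ± 0.08 (95% interval −0.16 to 0.18). Over both pressures it rose by 0.16 ± 0.04 (adjusted *P* = 0.00341, where 25.2% of 17608 genes passed), with every library left out in turn and with the region scores as covariates (0.21 ± 0.05, adjusted *P* = 0.0210). In NT mice alone the call was lost without mouse 1 of NT + Sham or mouse 3 of NT + Stroke (adjusted *P* = 0.0528 in both), with every gene of at least 1 count in the fit (adjusted *P* = 0.140) and with those covariates (adjusted *P* = 0.495).

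The peptides and the A receptor did not pass the test. *Edn1*, the vasoconstrictor made mainly by endothelium, had a median of 2.21 CPM in NT + Sham, 2.68 CPM in NT + Stroke, 2.21 CPM in HT + Sham and 2.87 CPM in HT + Stroke, with overlapping groups. Its log2 fold change after stroke was 0.36 ± 0.20 in NT mice (95% interval −0.07 to 0.79) and 0.32 ± 0.24 in HT mice (−0.19 to 0.83). *Edn3*, which acts mostly through the B receptor, was 4.28 to 7.58 CPM (median 6.60) in NT + Sham, 5.86 to 10.8 CPM (median 7.70) in NT + Stroke, 6.70 to 9.58 CPM (median 7.63) in HT + Sham and 4.98 to 10.3 CPM (median 6.59) in HT + Stroke. Its values were lowest in mouse 3 of NT + Sham, and the 4 groups overlapped. The log2 fold change was 0.42 ± 0.16 in NT mice (adjusted *P* = 0.0524) and −0.10 ± 0.17 in HT mice, and the interaction of −0.53 ± 0.24 did not pass (unadjusted *P* = 0.0378, adjusted *P* = 0.458). The NT difference passed in edgeR without mouse 5 of NT + Sham or mouse 2 or 3 of NT + Stroke, and by DESeq2 (adjusted *P* = 0.0426), and was 0.12 ± 0.21 with the region covariates. *Edn3* had an *r* of 0.64 with the olfactory bulb score and −0.65 with the striatal score over the 24 libraries after group means were subtracted. Its *r* with the score of 8 GABA interneuron markers was also −0.65.

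*Ednra*, the constrictor receptor of smooth muscle, was 1.87 to 3.97 CPM (median 3.63) in NT + Sham, 3.38 to 5.19 CPM (median 4.42) in NT + Stroke, 3.06 to 4.34 CPM (median 3.66) in HT + Sham and 2.75 to 6.41 CPM (median 4.85) in HT + Stroke. Both stroke groups reached above their sham group and overlapped it. The log2 fold change was 0.39 ± 0.17 in NT mice (adjusted *P* = 0.117) and 0.34 ± 0.20 in HT mice (adjusted *P* = 0.401), with an interaction of −0.05 ± 0.27. Over both pressures it was 0.36 ± 0.13 with an adjusted *P* of 0.0502, just beyond the threshold, and it passed in 7 of 24 fits with a library left out and by DESeq2 (adjusted *P* = 0.0372). The FPKM of *Ednrb* was 8.78 to 15.8 times that of *Ednra* in NT + Sham (median 10.2) and 10.6 to 14.3 times in NT + Stroke (median 12.7). In HT + Sham the ratio was 8.43 to 16.9 (median 11.03) and in HT + Stroke 6.06 to 12.6 (median 10.4), so the B receptor was the more abundant transcript in every library.

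**Figure D2:**
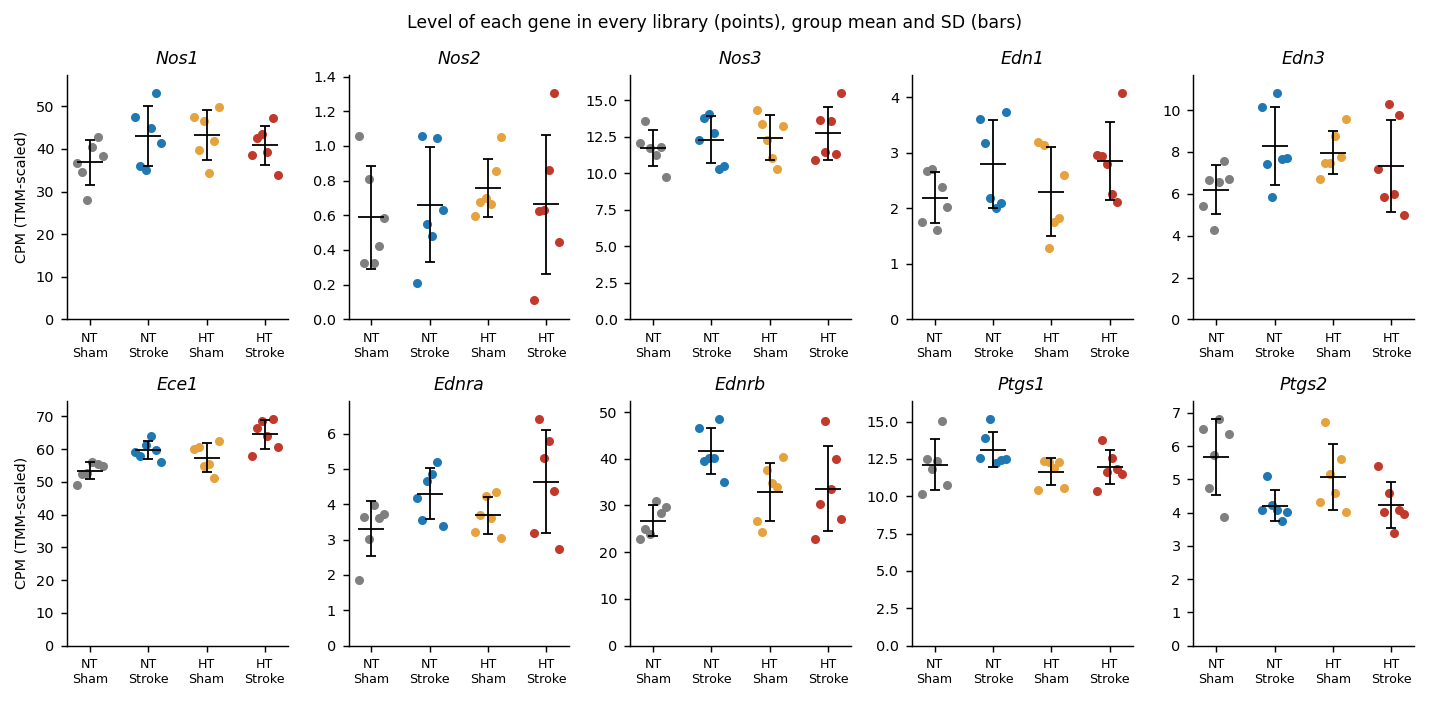
CPM of each gene (vertical axes start at 0) in the 6 libraries of each group, with 1 point per library and bars for the group mean ± SD. The NT + Stroke points of Ednrb (35.1 to 48.5 CPM) lie above all NT + Sham points (22.9 to 30.9 CPM), and the HT groups overlap.

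*Ptgs2*, the inducible cyclooxygenase, was lower after stroke. It was 3.88 to 6.82 CPM (median 6.04) in NT + Sham and 3.74 to 5.10 CPM (median 4.08) in NT + Stroke, 4.01 to 6.73 CPM (median 4.88) in HT + Sham and 3.38 to 5.41 CPM (median 4.05) in HT + Stroke. All 6 NT + Stroke mice lay below the NT + Sham median, but mice 2 and 5 of NT + Sham lay among them, and 5 of 6 HT + Stroke mice lay below the HT + Sham median. *Ptgs2* fell by 0.43 ± 0.14 on the log2 scale in NT mice (25.6% lower, adjusted *P* = 0.0349), while in HT mice the log2 fold change was −0.24 ± 0.16 (adjusted *P* = 0.454), with an interaction of 0.18 ± 0.21. Over both pressures it fell by 0.35 ± 0.10 (21.3% lower, adjusted *P* = 0.0152). The NT call held in only 3 of 12 fits with a library left out, those without mouse 2 or 5 of NT + Sham or mouse 2 of NT + Stroke, and the adjusted *P* reached 0.0934 without mouse 1 of NT + Sham. The call over both pressures held with each library left out. With the region scores as covariates neither call held (−0.16 ± 0.26 in NT mice and −0.29 ± 0.14 over both pressures), nor did either in limma on log2(FPKM + 1) or log2(FPKM + 0.1), and the NT call was also lost without scaling beyond library size. Over the alternatives other than leaving out a library, the call was kept in 6 of 10 in NT mice and 6 of 9 over both pressures.

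Neuronal markers and immediate early genes were examined beside *Ptgs2*. Of 4 neuronal markers 3 were lower in NT + Stroke vs NT + Sham (where 25.9% of all genes passed) and over both pressures (25.2%). Of 7 immediate early genes, which neurons switch on within minutes of activity, 0 passed in NT + Stroke vs NT + Sham, 1 was lower in HT + Stroke vs HT + Sham and 1 over both pressures (where 25.2% of all genes passed), and their summed level was 403 to 986 CPM in NT + Sham, 360 to 662 CPM in NT + Stroke, 330 to 856 CPM in HT + Sham and 269.8 to 511 CPM in HT + Stroke. After group means were subtracted, *Ptgs2* had an *r* of 0.20 with the neuronal score, 0.36 with the immediate early gene score, −0.47 with the olfactory bulb score and −0.56 with the score of 3 choroid plexus markers, whose summed level was 2.04 to 11.1 CPM over the libraries. The gene most like it was *Homer1* (*r* = 0.77), whose short form is itself induced by activity, followed by *Uba6* (0.75) and *Tacc1* (0.73). The part of these markers in the *Ptgs2* difference was not tested, apart from the fit with region covariates given above.

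*Ptgs1*, the constitutive cyclooxygenase that in brain marks microglia, did not pass the test. Its medians were 12.1 CPM in NT + Sham, 12.5 CPM in NT + Stroke, 12.1 CPM in HT + Sham and 11.7 CPM in HT + Stroke, with a log2 fold change after stroke of 0.12 ± 0.10 in NT mice (95% interval −0.09 to 0.32) and 0.05 ± 0.09 in HT mice (−0.15 to 0.24). Of 6 microglia and macrophage markers 5 were higher in NT + Stroke vs NT + Sham, where 25.9% of all genes passed. Their summed levels were 224 to 239 CPM in NT + Sham and 380.3 to 680 CPM in NT + Stroke. Among the 6, *P2ry12* changed little, averaging 24.4 CPM in NT + Sham and 25.1 CPM in NT + Stroke. The FPKM of *Ptgs1* was 1.85 to 4.56 times that of *Ptgs2* in NT + Sham (median 2.29) and 3.21 to 4.24 times in NT + Stroke (median 3.65), and in HT mice the median ratio was 2.83 in sham and 3.42 in stroke, so these ranges overlapped too.

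None of the nitric oxide synthases passed the test. *Nos1*, the neuronal form, was 27.9 to 42.8 CPM (median 37.5) in NT + Sham, 34.9 to 53.2 CPM (median 43.2) in NT + Stroke, 34.3 to 49.9 CPM (median 44.2) in HT + Sham and 33.9 to 47.2 CPM (median 40.9) in HT + Stroke. Its NT + Sham values reached lowest, and all groups overlapped. The log2 fold change after stroke was 0.23 ± 0.11 in NT mice (adjusted *P* = 0.144) and −0.07 ± 0.10 in HT mice, and in NT mice it was −0.07 ± 0.13 with the region covariates. *Nos1* had an *r* of 0.61 with the olfactory bulb score and −0.53 with the striatal score after group means were subtracted. Its *r* with the GABA interneuron score was −0.63. *Nos3*, the endothelial form, varied little, with medians of 11.8, 12.5, 12.8 and 12.5 CPM in the sham and stroke groups of NT mice and then of HT mice. Its 95% intervals after stroke were −0.14 to 0.28 in NT mice and −0.20 to 0.28 in HT mice on the log2 scale. On GRCm38, *Nos3* (chromosome 5, 24364810 to 24384474, plus strand) shares 25.2% of its exon bases with the antisense gene *Gm15587* and 7.12% with *Atg9b*, both on the other strand. Whether counting used strand is not given in the sources used here, so reads of these genes may not be separable. *Nos2* was 0.11 to 1.31 CPM over the 24 libraries, with a 95% interval after stroke of −0.65 to 0.97 in NT mice, so changes of any size within that interval remain possible.

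**Figure D3:**
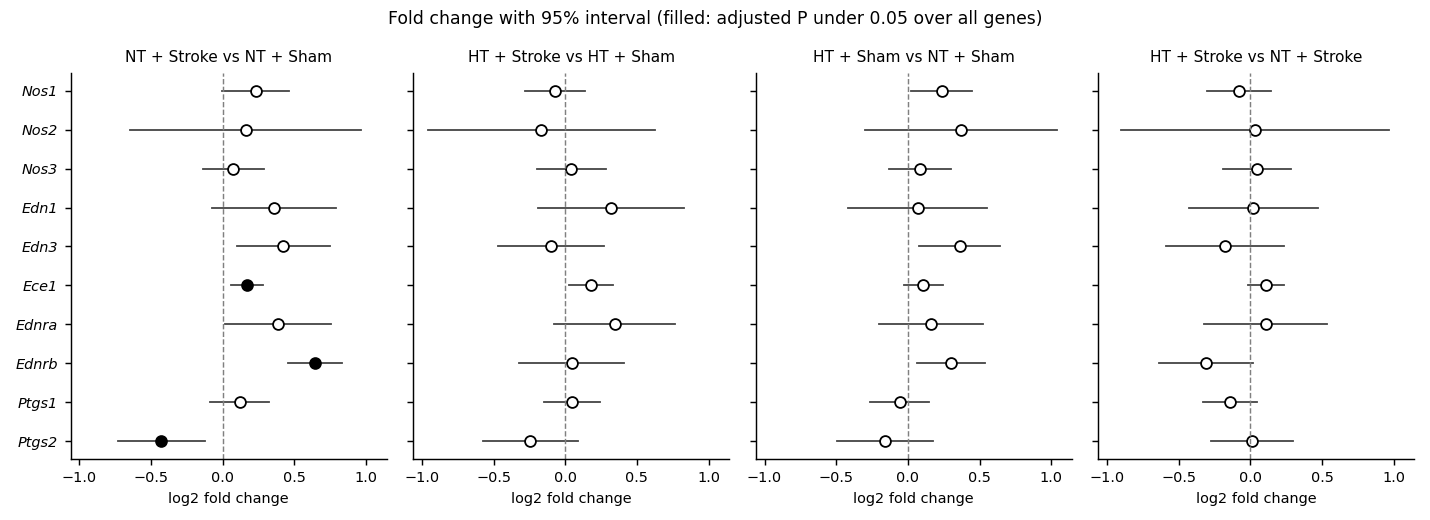
Log2 fold change (points) with its 95% interval (lines) for the 10 genes in 4 comparisons, filled where the adjusted P over all genes was under 0.05. Filled points occur for Ednrb (0.64), Ece1 (0.17) and Ptgs2 (−0.43) in NT + Stroke vs NT + Sham and nowhere else.

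The comparison within hypertensive mice passed for few genes of any kind, 0.645% of 16741 (108 genes) and 1.15% without overlap, and for 0 of the 10 genes described here on either count. By DESeq2 907 genes passed in that comparison. With single libraries left out the edgeR count ran from 9 (without mouse 3 of HT + Sham or mouse 2 of HT + Stroke) to 533 (without mouse 1 of HT + Stroke), and it was over 1.5 times away from 108 also without mice 1, 2 or 4 of HT + Sham and mice 4, 5 or 6 of HT + Stroke. The absence of a call in HT mice is therefore read against a low background, and the intervals above give the sizes that remain possible.

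Angiotensin II alone was examined in HT + Sham vs NT + Sham, in which 0% of 16581 genes passed in edgeR (1332 at an unadjusted *P* under 0.05, 0 by DESeq2) and 0.344% did not overlap. None of the 10 genes passed or separated. The 3 genes with an unadjusted *P* under 0.05 were *Edn3*, 28.5% higher in HT + Sham (log2 fold change 0.36 ± 0.13, adjusted *P* = 0.502 in edgeR), *Ednrb*, 23.2% higher (0.30 ± 0.11, adjusted *P* = 0.511), and *Nos1*, 17.7% higher (0.23 ± 0.10, adjusted *P* = 0.576). For *Edn3*, each of the 6 HT + Sham values exceeded the median of NT + Sham. These 3 genes had the highest *r* with the olfactory bulb score among the 10, and that score averaged 3.998 ± 0.47 in NT + Sham and 5.10 ± 0.77 in HT + Sham (mean ± SD, n = 6 each). The part of region content in these differences was not tested, apart from the fit with region covariates, which is among the alternatives that follow. In that fit 0 of the 10 genes passed. Over the alternatives other than leaving out a library, the log2 fold change was 0.11 to 0.38 for *Edn3*, 0.08 to 0.32 for *Ednrb* and 0.03 to 0.25 for *Nos1*. Without mouse 6 of HT + Sham, *Edn3* was 0.30 ± 0.14 and *Ednrb* 0.23 ± 0.11 on the log2 scale.

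Among stroke mice, HT + Stroke vs NT + Stroke, 0% of 17008 genes passed in edgeR (1230 at an unadjusted *P* under 0.05, 0 by DESeq2) and 0.159% did not overlap, again with none of the 10 genes. *Ednrb* had a log2 fold change of −0.31 ± 0.15 (95% interval −0.64 to 0.02) and *Ece1* of 0.11 ± 0.06 (−0.02 to 0.23). For HT vs NT over both surgeries 0% of 17608 genes passed (751 at an unadjusted *P* under 0.05, 0 by DESeq2), and the smallest unadjusted *P* among the 10 was that of *Ece1*, 7.80% higher in HT mice (0.11 ± 0.04, adjusted *P* = 0.924 in edgeR). The interaction of hypertension and stroke passed for 0% of 17608 genes in edgeR (1836 at an unadjusted *P* under 0.05) and for 22 by DESeq2, of the 10 genes 0 by either.

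**Figure D4:**
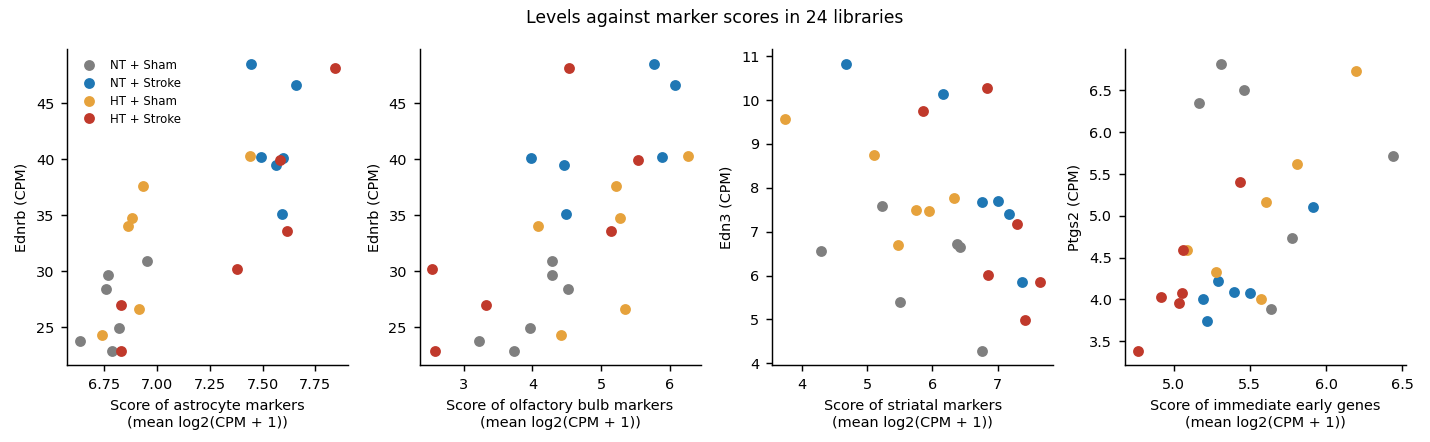
CPM of Ednrb, Edn3 and Ptgs2 against marker scores (mean log2(CPM + 1)) in 24 libraries, colored by group, with axes that do not start at 0. Ednrb is higher where the astrocyte and olfactory bulb scores are higher. Edn3 tends to be lower where the striatal score is higher, and Ptgs2 tends to be higher where the immediate early gene score is higher. Without group means subtracted, the Pearson r of log2(CPM + 1) was −0.42 for the Edn3 pair and 0.51 for the Ptgs2 pair.

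The other genes of the 3 pathways were counted from lists that leave out the 10. Of 25 genes of the nitric oxide and cyclic GMP pathway 24 were tested, and over both pressures 3 rose and 2 fell after stroke, against a background of 25.2% of all genes. The count of this list is near that share. *Ddah2*, which breaks down the endogenous inhibitor of nitric oxide synthases, rose by 0.38 ± 0.10, *Slc7a2*, which carries their substrate arginine into cells, by 0.38 ± 0.10, and *Qdpr*, which recycles their cofactor, by 0.23 ± 0.05 (log2 scale). *Gucy1b1*, a subunit of the guanylyl cyclase that nitric oxide activates, fell by 0.24 ± 0.05, and the arginine transporter *Slc7a1* fell by 0.16 ± 0.05. The median log2 fold change over the 24 was 0.04, against −0.01 over all genes tested. Within NT mice 4 rose and 2 fell, again near the share of all genes that passed (25.9%). The counts were 3 to 4 and 1 to 2 with a library left out, and 0 and 0 with the region scores as covariates. Of the NT calls *Arg2*, an arginase, lost its own in 10 of 12 fits that left out 1 library and *Slc7a1* in 8. Within HT mice only *Qdpr* passed (0.35 ± 0.07, adjusted *P* = 0.0334), a call lost in 6 of 12 fits that left out 1 library (without any of mice 1 to 4 of HT + Sham or mice 2 and 4 of HT + Stroke, adjusted *P* up to 0.128).

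Of 12 genes of endothelin processing and signaling 10 were tested, of which 5 rose and 3 fell over both pressures, where 25.2% of all genes passed. *Mme*, neprilysin, a peptidase that degrades endothelins and other peptides, rose by 0.70 ± 0.16. The receptor-coupled phospholipases *Plcb2* and *Plcb3* rose by 0.58 ± 0.09 and 0.54 ± 0.09, whereas *Plcb4* and *Plcb1* fell by 0.21 ± 0.06 and 0.17 ± 0.05. Among the G proteins, *Gna12* rose by 0.34 ± 0.05 and *Gnaq* fell by 0.23 ± 0.06. The genes of this list thus did not move one way, with a median of 0.17. Within NT mice 3 rose and 3 fell, where 25.9% of all genes passed. The counts were 3 to 5 and 2 to 3 with a library left out (*Plcb4* lost its call in 6 of 12 fits), and 2 and 0 with the region covariates. Within HT mice *Gna12* alone passed (0.34 ± 0.07, adjusted *P* = 0.0476), and that call was lost in 9 of 12 such fits (without mice 1, 2, 3, 4 or 6 of HT + Sham or mice 2 to 5 of HT + Stroke, adjusted *P* up to 0.153).

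In the prostanoid list most called genes were higher after stroke. Of 25 genes of prostanoid synthesis, clearance and reception 23 were tested over both pressures, of which 9 rose and 0 fell, with a median of 0.26. Over all genes 25.2% passed in that comparison. With 1 library left out 7 to 10 rose and 0 to 1 fell, and the call of *Hpgd*, which inactivates prostaglandins, was lost in 16 of 24 such fits. The largest increases were those of *Ptgdr*, a receptor for prostaglandin D, at 1.57 ± 0.30, *Tbxas1*, thromboxane synthase, at 1.45 ± 0.20, *Ptger2*, a receptor for prostaglandin E, at 1.17 ± 0.33, and *Hpgds*, a prostaglandin D synthase of hematopoietic cells, at 0.97 ± 0.12. *Tbxas1* averaged 2.40 ± 0.364 CPM in NT + Sham and 7.42 ± 2.06 CPM in NT + Stroke, and 2.99 ± 1.02 CPM in HT + Sham and 7.24 ± 3.77 CPM in HT + Stroke (mean ± SD, n = 6). *Hpgds* averaged 5.31 ± 0.623, 11.7 ± 1.42, 6.30 ± 1.06 and 11.1 ± 4.24 CPM in the same order. The 2 receptors were at lower levels. In that order *Ptgdr* averaged 0.79, 3.34, 0.91 and 1.86 CPM and *Ptger2* 0.25, 0.90, 0.43 and 0.62 CPM. Over both pressures *Ptgs1* did not pass and *Ptgs2* was called lower, a call that was lost with the region covariates. Of 6 microglia and macrophage markers 5 were higher in that comparison, where 25.2% of all genes passed. Their part in the prostanoid increases was not tested. Within NT mice 9 rose and 1 fell, where 25.9% of all genes passed. The counts were 8 to 10 and 0 to 1 with a library left out, and 4 and 0 with the region covariates. The decrease was that of *Ptger3*, a receptor for prostaglandin E (fell by 0.85 ± 0.30 on the log2 scale, adjusted *P* = 0.0439 in edgeR), and it was lost in 10 of 12 such fits. Within HT mice 0 of 22 passed in edgeR and 2 by DESeq2, and the values of *Hpgds* (0.82 ± 0.21) and *Tbxas1* (1.29 ± 0.33) had an adjusted *P* of 0.0789 and 0.0794 in edgeR. No gene of the 3 lists passed in edgeR for HT vs NT, whether among sham mice, among stroke mice or over both surgeries, or for the interaction.

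With the region scores as covariates the counts over both pressures were 1 higher and 0 lower in the nitric oxide list, 3 and 0 in the endothelin list and 3 and 0 in the prostanoid list. Without mouse 6 of HT + Sham they were 4 and 2, 5 and 3, and 10 and 0.

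**Figure D5:**
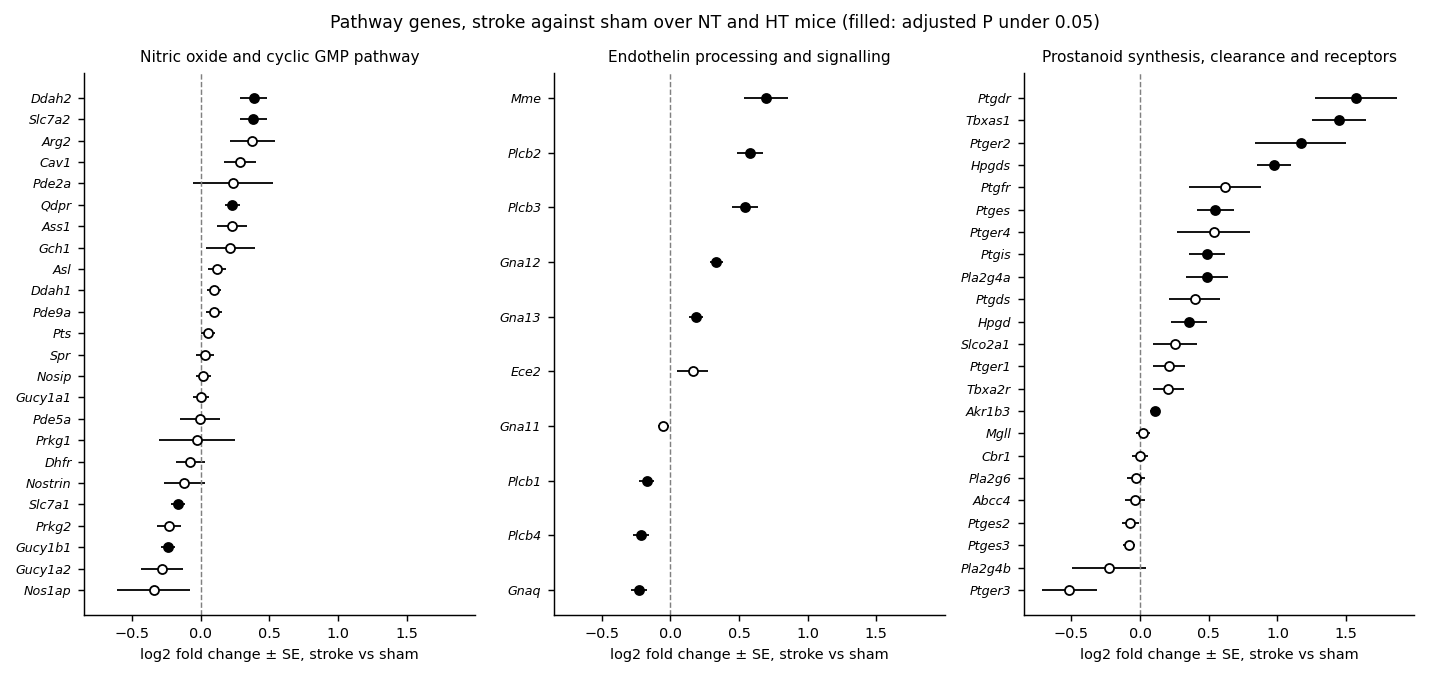
Log2 fold change ± SE, stroke against sham over NT and HT mice, of the genes tested in 3 pathway lists, filled where the adjusted P over all genes was under 0.05. The prostanoid list holds 9 filled points, all above 0, while the nitric oxide list (3 above and 2 below 0) and the endothelin list (5 above and 3 below 0) hold both directions.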

How the data were processed

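Poly(A) RNA of a coronal brain section was sequenced on an Illumina platform in 24 libraries, 6 per group. Reads were mapped by the authors to Ensembl's mouse genome, and the deposited counts are whole, unnormalized numbers per gene. The submitters' processing notes name featureCounts 1.5.0-p3 and DESeq2 1.20.0. The aligner, the genome build and the use of strand in counting are not given in the sources used here. The deposited FPKM values were computed by the authors from the counts, gene length and library size. The authors' own fold changes and p-values (columns of their comparisons), and 56 columns of normalized counts and group means, were not used.

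The 4 tables were joined by Ensembl identifier, and 48 comparisons of a library between tables found 0 that differed. All 10 genes lie at the same position in GENCODE M21 on GRCm38. Counts were tested in R 4.3.3 with edgeR 4.0.16 (filterByExpr with a minimum count of 10 and total of 15, TMM scaling, robust quasi-likelihood test, two-sided) on the groups compared, or on all 4 groups for the effects over both pressures or surgeries (additive model) and for the interaction. *P* values were adjusted by Benjamini-Hochberg over every gene in the fit and called under 0.05. CPM uses TMM-scaled library sizes, ± after a fold change is its SE, and the 95% interval of a log2 fold change uses the *t* quantile of the fit's degrees of freedom. The script was tested on simulated data.

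A marker score is the mean log2(CPM + 1) over its list. Likeness between genes is Pearson's *r* of log2(CPM + 1) over 24 libraries after group means were subtracted, among genes averaging 1 CPM or more, and the 3 highest were named, except 1 that is not reported here. From the pathway lists, up to 4 increases and 4 decreases were named among genes called over both pressures, with any gene called where at most 5 of its list were called. The genes and lists were chosen with earlier results of these data known. The alternatives were DESeq2 1.42.0, upper-quartile or no scaling, 2 other filters, limma 3.58.1 on log2(FPKM + 1) and log2(FPKM + 0.1), all 4 groups in one fit, the library number as a block, olfactory bulb and striatal scores as covariates, an unadjusted threshold, and each library left out. Counts of the pathway lists under these alternatives were added after the data were seen. The labels name no sequencing batch.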

Additional observations from a re-analysis of the deposited data

Results flagged for a closer look

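In NT + Stroke, *Ptgs2* had a highest value set apart from the others: 5.10 CPM in mouse 2, against 3.74 to 4.22 CPM in the other 5 mice, a gap of 0.651 of the group's range. This was the only one of 40 groups of 6 values (10 genes in 4 groups) in which the highest or lowest mouse stood that far apart by Dixon's test, and chance alone marks about 1 group in 20. Mouse 2 also had the highest immediate early gene level of its group. Without it *Ptgs2* fell by 0.47 on the log2 scale in NT + Stroke vs NT + Sham.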

How the results depend on the processing

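Over the alternatives other than leaving out a library, 637 of 663 log2 fold changes of the 10 genes kept their direction and their side of the threshold (among them estimates within 1 SE of 0, of which 108 changed sign over all alternatives), and 2 reversed, both with the region scores as covariates: *Nos1* in NT + Stroke vs NT + Sham (−0.074) and *Ptgs2* in HT + Sham vs NT + Sham (0.22). With a library left out, 1164 of 1200 kept theirs. With those covariates the genes called, of the 10, were 0 in NT + Stroke vs NT + Sham and 1 over both pressures, and of all genes 704, 1064 and, in HT + Stroke vs HT + Sham, 0. The cause was not tested. At an unadjusted *P* under 0.05 the genes called of the 10 were 5 in NT + Stroke vs NT + Sham, 1 in HT + Stroke vs HT + Sham, 3 in HT + Sham vs NT + Sham, 5 for stroke over both pressures, 1 for HT vs NT and 2 for the interaction, and of all genes 2842 in HT + Stroke vs HT + Sham, 1332 in HT + Sham vs NT + Sham, 1230 in HT + Stroke vs NT + Stroke, 751 for HT vs NT and 1836 for the interaction.

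For HT + Stroke vs HT + Sham, 907 genes passed by DESeq2, 1125 with all 4 groups in one fit, 179 with all genes of at least 1 count, 57 and 20 by limma on log2(FPKM + 0.1) and log2(FPKM + 1), and 67 without scaling. In limma on log2(FPKM + 0.1), 1 gene passed in HT + Sham vs NT + Sham and 2 for HT vs NT, and by DESeq2 22 passed for the interaction. The labels do not say whether the library number pairs mice. Of 36 same-number pairs 15 had a correlation above 0.1 (all ran from −0.52 to 0.41). In 13 of the 36 the same number was the best match in the other group, which does not settle whether mice were paired. As a replicate block the number gave 5 of the 10 genes in NT + Stroke vs NT + Sham (3 without it). It gave 46 genes in HT + Stroke vs HT + Sham (108 without it). With each library left out, 1 to 4 of the 10 genes passed in NT + Stroke vs NT + Sham (1 without mouse 1 of NT + Sham), 2 to 4 over both pressures, and 9 to 533 genes in HT + Stroke vs HT + Sham. *Edn3* in NT + Stroke vs NT + Sham passed under 6 of 10 other settings. Depth limited *Nos2*, with 2 to 26 counts per library.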

Other observations

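Among the 10 genes, *Edn1* had its lowest correlations over the 24 libraries, after group means were subtracted, with the endothelin receptors, at a Pearson *r* of −0.48 with *Ednrb* and −0.44 with *Ednra*, while *Ednrb* had an *r* of 0.59 with *Edn3*, 0.51 with *Ednra* and 0.49 with *Nos1*. The genes most like *Nos1* were *Rgs12* (0.87), *Iqsec3* (0.87) and *Gprc5b* (0.86), and those most like *Edn3* were *Wif1* (0.80), *Fat1* (0.79) and *Filip1l* (0.78). *Ece1* was most like *Adamts7* (0.84), *Nradd* (0.76) and *Csk* (0.75), and *Nos3* most like *Impdh2* (0.76), *Hps4* (0.72) and *Fchsd1* (0.72). *Edn1* was most like *Plekhg4* (0.75), *Zhx3* (0.74) and *Cables1* (0.72), *Ednra* most like *2410004P03Rik* (0.77) and *Adora3* (0.74), *Ptgs1* most like *Jpt2* (0.70), *Tmem215* (0.69) and *Rragc* (0.69), and *Nos2* most like *Gm14964* (0.70), *Rpl7a* (0.68) and *Tor1aip2* (0.65). These are descriptions of 24 libraries that share tissue, dissection and depth, chosen as the highest of 15494 genes (15495 for *Nos2*).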
